A study of Rattus norvegicus with 3 samples.

Results

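Lhx9-positive early neurons are postmitotic cells of the embryonic rat cortex that hold RNA of the LIM-homeodomain factor Lhx9 together with RNA of Ebf1, Ebf2 or Calb2. They were chosen on measured counts of unique molecular identifiers (UMIs, which count RNA molecules). A cell had to hold at least 1 Lhx9 UMI and at least 3 UMIs of Ebf1, Ebf2 and Calb2 together. It had to hold fewer than 5 Reln UMIs and none of the progenitor gene Sox2 or of the proliferation genes Top2a and Mki67. Cells were kept if they had 1000 or more detected genes and no more than 10% mitochondrial UMIs, and 141 of the 15327 kept cells met this rule. They were 114 of 5193 cells in the library labelled E16 (2.20%, 95% exact binomial interval 1.81% to 2.63%) and 27 of 5690 in that labelled E18 (0.475%, 0.313% to 0.690%). None of the 4444 cells labelled E14 met it (exact binomial upper limit 0.0830%), and 1 of 5496 did under a looser cell filter (500 genes, 20% mitochondrial UMIs).

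The tissue was cerebral cortex of rat embryos with the wild-type genotype. It was dissociated with papain, and its cells were profiled with the 10x Genomics 3' single-cell assay. The labels name embryonic days 14, 16 and 18, with 1 library each, so no difference below has a replicate check and none was tested. All intervals cover counting error only. No treatment, pooling or number of embryos is given. The protocol text also describes cultured cells, multiplexing and a sort of human cells, which cannot apply to primary rat cells as written.

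Early-born neurons of the cortex form the preplate, a transient layer beneath the pia that is later split into the marginal zone above and the subplate below. The marginal zone holds Cajal-Retzius neurons, which secrete reelin, and subplate neurons guide the first axons into and out of the cortex. Lhx9 is a paralog of Lhx2 that is found in early neurons of the pallium and of the thalamic eminence, and the EBF factors act in neurons as they leave the cell cycle and migrate.

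The 3 libraries held between 62740631 and 80974234 UMIs. Between 12 and 17 barcodes were shared by each pair of libraries, and 1 member barcode of the library labelled E18 was also present in that labelled E16. Levels of Hmga2, a chromatin protein of early progenitors, did not follow the order of the labels in Sox2-positive cells. They were 5.79, 206 and 15.9 CPM (UMIs per 1000000 UMIs, summed over a group of cells) in the libraries labelled E14, E16 and E18. Stage is therefore given below only as the label of a library, and a difference between labels cannot be told apart from a difference between libraries.

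The rule shaped these cells in several ways. The library labelled E16 held 888 cells with a Lhx9 UMI, of which 350 had no Sox2, Top2a or Mki67 UMI. Of those 350 cells, 191 reached 3 UMIs of Ebf1, Ebf2 and Calb2, and 77 of the 191 were left out for 5 or more Reln UMIs. Just outside the rule, 39 cells labelled E16 held 2 UMIs of the 3 genes, against 24 that held 3. At the Reln limit, 7 members held 4 UMIs and 6 cells held 5. In the library labelled E18, 269 Lhx9 cells were without Sox2, Top2a and Mki67, 58 of them reached the sum, and 31 of the 58 were left out for Reln. Of the 70 such Lhx9 cells labelled E14, 7 reached the sum, and all 7 held 5 or more Reln UMIs.

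The genes that chose the cells are given as a description. Members labelled E16 held a median of 2 Lhx9 UMIs (range 1 to 11), 3 Ebf1 UMIs (0 to 26) and 1 Ebf2 UMI (0 to 6). The median of Calb2, which encodes the calcium-binding protein calretinin, was 0, with a range of 0 to 34. Of these 114 cells, 64 met the sum through Ebf1 and Ebf2 alone, 7 through Calb2 alone and 43 held both. Members labelled E18 were composed differently. Among the 27 cells, 12 met the sum through Calb2 alone, 8 through Ebf1 alone and 7 through both, and no cell held an Ebf2 UMI.

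Lhx9 RNA was not confined to these neurons. In the library labelled E16 its level was 298 CPM in members, 307 CPM in Reln-high neurons, 44.7 CPM in Eomes-positive cells with Top2a or Mki67 and 14.2 CPM in Sox2-positive cells. Of 795 Eomes-positive proliferating cells labelled E16, 26.5% held a Lhx9 UMI. In the library labelled E18 the level was 130 CPM in members and 302 CPM in Reln-high neurons. No Lhx9 UMI was found in 44 endothelial-like cells of the 3 libraries, a class in which the gene is not known to act (exact binomial upper limit 8.04%, median depth 14756 UMIs). The members' own median depths were 9290.5 UMIs labelled E16 and 14097 labelled E18.

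Nearly all of the cells carried neuronal RNA. Neuronal transcripts (at least 1 Stmn2 and 5 Tubb3 UMIs) were present in 113 of 114 members labelled E16 and 26 of 27 labelled E18. Markers that the rule did not use were also present. In members labelled E16, Nhlh2, a basic helix-loop-helix factor of young neurons, was found in 105 cells, and Nxph4, a secreted ligand of neurexins known from the subplate, in 92 cells. Calb1, which encodes the calcium buffer calbindin, was found in 27. Tbr1, the T-box factor of early-born glutamatergic neurons, was found in 106, and Bcl11b, a zinc-finger factor of deep-layer neurons, also in 106.

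Genes that define the postnatal subplate were at or near 0. In members labelled E16 there was no UMI of the nuclear receptor Nr4a2, the secreted factor Ccn2, the release protein Cplx3 or Moxd1, with an upper limit of 3.38 CPM for each. In members labelled E18, Ccn2, Cplx3 and Moxd1 were again at 0 (upper limit 8.59 CPM), and Nr4a2 stood at 25.6 CPM from 3 cells. Of the whole 18-gene subplate and preplate list, 9 genes reached 10 CPM in members or other neurons labelled E16. In those labelled E18, 11 did, Nr4a2 among them. Since these markers are mixed, the cells are called here by their rule.

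A further 3 populations served as comparison, each without Sox2, Top2a and Mki67. Other neurons passed the neuronal threshold of 1 Stmn2 and 5 Tubb3 UMIs and held no Lhx9, fewer than 5 Reln UMIs, and no Gad1 or Gad2. The rule of the members asked neither for that threshold nor for the absence of Gad1 and Gad2. Reln-high cells held 5 or more Reln UMIs, with or without Lhx9. Lhx9-negative kin met every condition of the rule but the Lhx9 one. In the library labelled E16 these were 199, 94 and 97 cells, and 63 of the 97 kin passed the neuronal threshold. In the library labelled E18 they were 1490, 50 and 77 cells, of which 64 kin were neuronal. All neuronal kin labelled E16 and E18 are also counted among the other neurons. A log2 ratio below compares CPM values after 10 CPM was added to each, and genes of at least 50 CPM in either group enter the counts over all genes that differed at least 2-fold. Counts within a gene list use its genes of at least 10 CPM in either group, called measured, and are to be read against the share of all genes at 10 CPM.

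**Figure D1:**
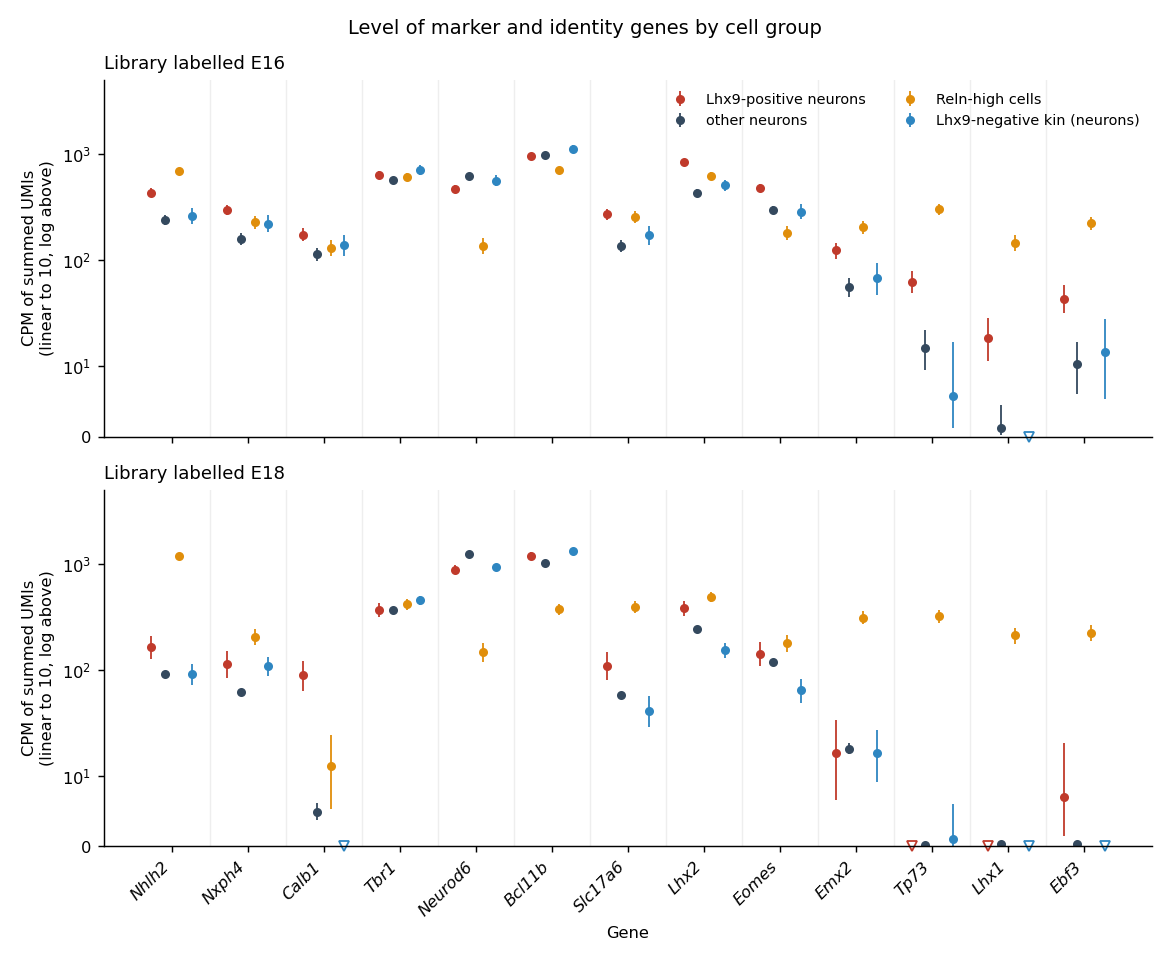
Levels (CPM, axis linear up to 10 and logarithmic above, bars 95% Poisson intervals) of 13 genes outside the rule in members, other neurons, Reln-high cells and neuronal Lhx9-negative kin, for the libraries labelled E16 and E18. Open triangles mark genes without a UMI; in the library labelled E16, Neurod6 was at 465 CPM in members against 136 CPM in Reln-high cells, and Tp73 at 62.4 against 301 CPM.

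What set the members apart from the other neurons of the library labelled E16 was a short list of genes. Of 3038 genes, 19 were at least 2-fold higher in members (0.625%) and 8 were at least 2-fold lower (0.263%). The higher genes included Tp73, a factor of Cajal-Retzius neurons, the guidance genes Nrp2 and Sema6a, and the Wnt effector Tcf7l2, whose UMIs came from 5 cells. The counts of 19 and 8 ranged from 11 to 256 and from 7 to 111 over the alternatives of the closing section. General neuronal genes and cortical glutamatergic factors lay close to even.

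Nhlh2 was at 431 CPM in members (95% Poisson interval 393 to 472) and 238 CPM (215 to 263) in other neurons, a log2 ratio of 0.83. Nxph4 was at 296 CPM (265 to 330) against 158 CPM (139 to 178), a log2 ratio of 0.87. Calb1 was at 173 CPM (149 to 200) against 113 CPM (97.3 to 131). All 3 genes were higher in members with intervals that do not overlap, and none reached 2-fold. Over neuronal kin all 3 were higher too, with a median log2 ratio of 0.41. Over Reln-high cells 2 were higher and 1 lower, with a median of 0.38. None was 2-fold apart in these 2 comparisons either.

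The LIM-homeodomain gene Lhx2, a glutamate transporter and a cannabinoid receptor were also higher in members. Lhx2, the paralog of Lhx9 that specifies cortical progenitors, was at 829 CPM (776 to 885) in members and 429 CPM (398 to 462) in other neurons. Slc17a6, the vesicular glutamate transporter of early glutamatergic neurons, was at 269 CPM against 135 CPM, a log2 ratio of 0.94. Cnr1, the cannabinoid receptor, was at 850 CPM (796 to 907) against 393 CPM (363 to 425). Of these genes Cnr1 was at least 2-fold higher, with a log2 ratio of 1.09. Gad1 and Gad2, which make GABA, had no UMI in the members of either library.

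Another LIM gene, Lhx1, belongs to a list of 14 Cajal-Retzius genes of which 8 reached 10 CPM. Of the 8 genes, 5 were at least 2-fold higher in members than in other neurons (Tp73, Lhx1, Ebf3, Zic1 and Emx2) and the median log2 ratio was 1.04, against 0.04 for all 8148 genes at 10 CPM, of which 0.614% were at least 2-fold higher and 0.307% lower. Of the 5, Lhx1 passed the 10 CPM minimum through the members alone and so had to be higher. In the 63 members without a Reln UMI the log2 ratio of Tp73 was -0.69 in place of 1.55, and Lhx1 had no UMI. Tp73, a p53-family factor that Cajal-Retzius neurons require, was at 62.4 CPM (48.4 to 79.1) in members and 14.7 CPM (9.45 to 21.9) in other neurons. Its 68 UMIs came from 15 of the 114 cells. Emx2, a homeodomain factor of the medial pallium, was at 123 CPM (103 to 146) against 55.3 CPM (44.5 to 68.0) and was found in 65 cells. The Cajal-Retzius genes thus differ in spread, with Tp73 in few members and Emx2 in most of them.

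The 15 genes with the highest ratio among those at 50 CPM were led by Tcf7l2, a Wnt effector, and by the unnamed gene LOC102553190, whose log2 ratio of 2.32 was 0.35 in members without Reln and 0.099 under a stricter cell filter. Tcf7l2 was at 62.4 CPM in members and 1.23 CPM in other neurons, but its 68 UMIs lay in 5 cells, described below. Plk4, the kinase that starts centriole duplication, was at 170 CPM (146 to 196) against 46.7 CPM (36.8 to 58.4) and was found in 48 members. Selenom, a selenoprotein of the endoplasmic reticulum, was at 77.9 CPM against 16 CPM. Tfap2e, an AP-2 factor, was at 66.0 CPM against 17.2 CPM in 18 members.

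Guidance genes were among the same 15. Nrp2, a receptor for class 3 semaphorins, was at 105 CPM (87.1 to 127) in members and 39.9 CPM (30.8 to 50.9) in other neurons. Sema6a, a transmembrane semaphorin, was at 61.4 CPM (47.6 to 78.0) against 19.0 CPM (12.9 to 27.0). In members without Reln the log2 ratio was 0.46 for Nrp2 and 0.40 for Sema6a, in place of 1.21 and 1.30. Dach1, a nuclear cofactor, Nkd1, an inhibitor and target of Wnt signalling, Chst2, a sulfotransferase, and Fstl5 had log2 ratios between 1.13 and 1.22. Ndufa4l2 had one of 1.23, and LOC102556108 (log2 ratio -0.071 in members without Reln, in place of 1.61) and LOC102548260 completed the list. Selenom, Tfap2e and LOC102548260 stayed at least 2-fold higher under every one of the 16 alternatives, and the remaining 12 of the 15 did not. Of 34 measured genes of guidance and adhesion, 3 were at least 2-fold higher (Sema6a, Nrp2 and Cxcr4), 3 were lower (Sema3a, Sema3c and Cxcl12), and the median was -0.09, beside 0.614% and 0.307% of all genes at 10 CPM. Cxcr4 passed that minimum through the members alone and so had to be higher.

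Because Nrp2 and Tfap2e were among the higher genes and Nhlh2 is a marker that the rule did not use, the 250 bases before their start sites are shown (RefSeq, GRCr8). Capitals mark the E-box letters CAGCTG, to which proneural helix-loop-helix factors can bind.
Nhlh2, chr2:192132598-192132847, plus strand: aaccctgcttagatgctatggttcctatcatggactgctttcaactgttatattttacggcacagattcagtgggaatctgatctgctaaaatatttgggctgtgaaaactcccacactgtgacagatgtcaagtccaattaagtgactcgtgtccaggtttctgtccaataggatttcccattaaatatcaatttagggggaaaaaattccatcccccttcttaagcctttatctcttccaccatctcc
Nrp2, chr9:71617004-71617253, plus strand: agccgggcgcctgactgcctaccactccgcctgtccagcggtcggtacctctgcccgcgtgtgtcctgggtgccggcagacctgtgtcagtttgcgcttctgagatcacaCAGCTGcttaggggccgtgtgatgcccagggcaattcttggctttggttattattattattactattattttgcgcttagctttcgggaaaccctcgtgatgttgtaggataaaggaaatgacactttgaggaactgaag
Tfap2e, chr5:144314619-144314868, minus strand: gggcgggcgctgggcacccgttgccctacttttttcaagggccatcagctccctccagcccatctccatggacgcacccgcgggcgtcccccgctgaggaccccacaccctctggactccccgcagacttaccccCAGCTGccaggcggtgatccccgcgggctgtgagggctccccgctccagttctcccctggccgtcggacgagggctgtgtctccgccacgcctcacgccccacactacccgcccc
The E-box letters lay at -140 in Nrp2 and at -115 in Tfap2e, counted from the start site, and Nhlh2 held none. Of the 15 highest genes 13 matched a promoter in the RefSeq table, and 3 of the 13 (23.1%) held the E-box, the remaining one being Sema6a. Of all 33469 promoters of this length, 12% held it. An EBF motif (TCCC and GGGA separated by any 2 bases, searched on both strands) and a homeodomain motif (TAATTA) were in none of the 13, against 0.738% and 4.86% of all promoters. With 13 promoters, these shares describe the sequences and are not a difference.

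Of 8 measured upper-layer genes 1 was at least 2-fold lower in members, Pou3f2, beside 0.307% of all genes at 10 CPM, and the median log2 ratio was -0.40. Pou3f2, a POU factor of upper-layer neurons, was at 68.8 CPM (54.1 to 86.2) against 149 CPM (131 to 169) in other neurons. Meis2, a TALE homeodomain factor, was at 27.5 CPM (18.6 to 39.3) against 82.3 CPM (69.0 to 97.5). Fst, which encodes the activin antagonist follistatin, was at 7.34 CPM against 51.0 CPM. Runx1t1, a transcriptional corepressor, was at 99.0 CPM against 248 CPM. Under a stricter cell filter, which left 16 members and 43 other neurons, the log2 ratio of Pou3f2 was 0.20 in place of -1.01, and 256 and 111 genes were 2-fold higher and lower. The genes with the lowest ratios also included Fign, Hmgb2, Sorl1, LOC102553820 and Pttg1, of which the last 2 were at -0.97 on the log2 scale and so short of 2-fold. Meis2 and Runx1t1 stayed at least 2-fold lower under the 16 alternatives.

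Cortical identity genes did not separate the members from other neurons by 2-fold. Of 14 cortical glutamatergic genes none passed 2-fold in either direction, and the median log2 ratio was 0.10. Neurod6, a helix-loop-helix factor of cortical projection neurons, was at 465 CPM (425 to 507) in members and 615 CPM (577 to 654) in other neurons. The subplate and preplate list had 9 of 18 genes at 10 CPM, none of them 2-fold apart, with a median of 0.18, which was -0.10 when members had to hold 6 UMIs of Ebf1, Ebf2 and Calb2, 0.66 under the stricter cell filter and 0.034 with no list minimum. Eomes, the T-box factor of intermediate progenitors, was higher in members at 481 CPM (440 to 523) against 297 CPM (271 to 324), although the progenitor list as a whole had a median of 0.01. After thinning of each cell to 2000 UMIs, 57.0% of members and 31.2% of other neurons held an Eomes UMI, against 77.2% of members before thinning.

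**Figure D2:**
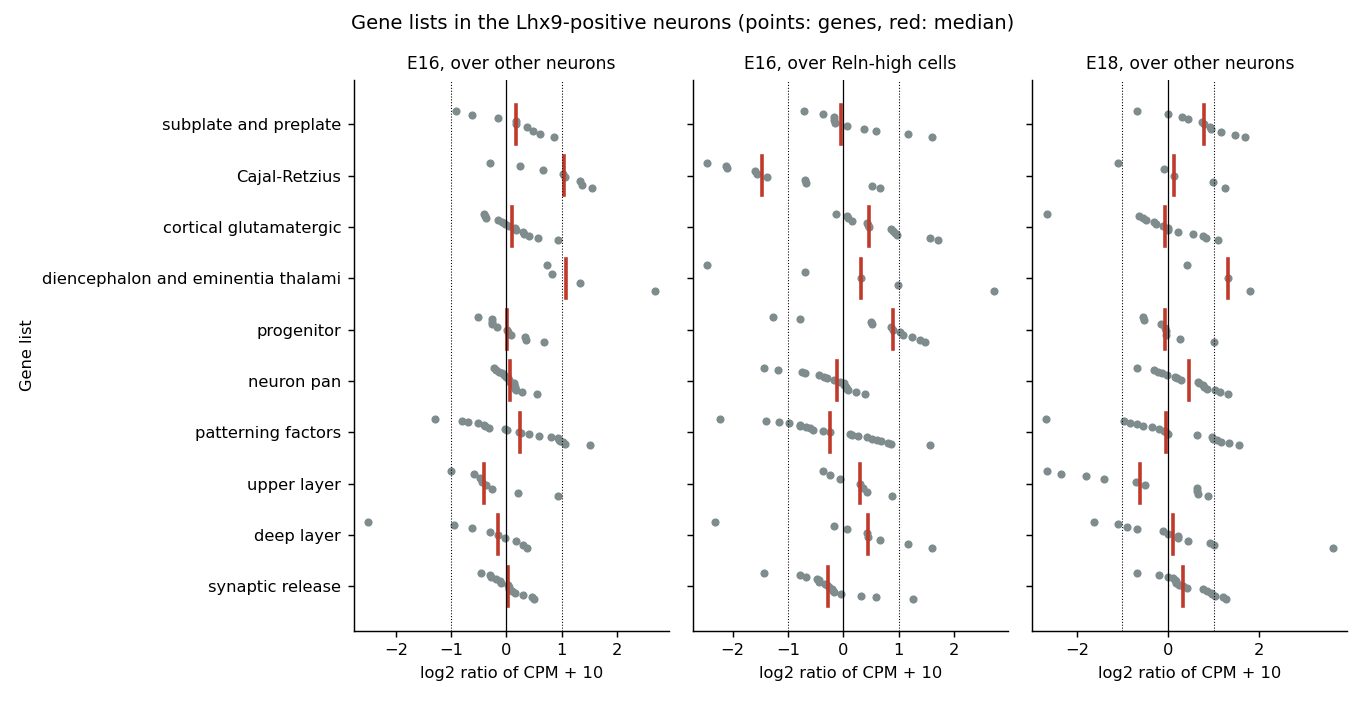
Log2 ratio of each gene (points) and median (red line) for 10 gene lists: members over other neurons and over Reln-high cells in the library labelled E16, and over other neurons in that labelled E18. Dotted lines mark a 2-fold difference; the Cajal-Retzius list lies at a median of 1.04 in the first panel and -1.47 in the second (-0.69 with no list minimum).

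Most Reln-high cells shared Lhx9 with the members, since 80 of the 94 Reln-high neurons labelled E16 held a Lhx9 UMI. Both groups lacked Sox2, Top2a and Mki67, and neither Lhx9 nor Ebf1, Ebf2 or Calb2 was asked of the Reln-high cells. Tp73, Lhx1 and Ebf3, genes of the Cajal-Retzius list, were lower in members, and Neurod6 and Eomes were higher. Of 3151 genes, 57 were at least 2-fold higher in members (1.81%) and 73 lower (2.32%) in the library labelled E16. Under the stricter cell filter these counts were 892 and 137, and 123 and 120 genes were lower for members without Reln and after thinning to 5000 UMIs. Over all members, the levels of Tp73, Lhx1 and Ebf3 lay between those of Reln-high cells and other neurons, but the 63 members without Reln held Tp73 at 5.32 CPM and no Lhx1.

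Of 10 measured Cajal-Retzius genes, 6 were at least 2-fold lower in members than in Reln-high cells (Tp73, Lhx1, Cacna2d2, Ebf3, Clstn2 and Car10), with a median log2 ratio of -1.47 (-0.69 with no list minimum). Of all 8402 genes at 10 CPM, 1.19% were at least 2-fold higher and 1.89% lower. The 2 groups were divided by Reln, itself a gene of Cajal-Retzius neurons. Of the 15 members with Tp73, 14 held Reln, and so did all 10 with Lhx1. The values of this list are therefore not independent of the rule. Tp73 was at 62.4 CPM (48.4 to 79.1) against 301 CPM (268 to 338). Lhx1 was at 18.3 CPM (11.2 to 28.3) against 145 CPM (122 to 171), with 1.23 CPM in other neurons. Ebf3, an EBF factor outside the rule, was at 43.1 CPM (31.7 to 57.3) against 222 CPM (193 to 253), with 10.4 CPM in other neurons. For these 3 genes the intervals of the 3 populations did not overlap.

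Neurod6 was at 465 CPM in members and 136 CPM (114 to 161) in Reln-high cells, and Eomes at 481 CPM against 179 CPM (154 to 208). Of 11 measured progenitor genes, 5 were at least 2-fold higher in members (Fabp7, Ccnd1, Eomes, Neurog2 and Gadd45g) and Hes1, a Notch target, was lower. Tbr1, at 636 CPM (590 to 686) in members and 610 CPM (562 to 662) in Reln-high cells, did not separate the 2 groups.

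Among the 8 highest and 8 lowest genes of this comparison were Epha4, Chl1 and Cck. The ephrin receptor Epha4 was at 155 CPM (132 to 180) in members and 15.5 CPM (8.66 to 25.5) in Reln-high cells, and Plk4 at 170 CPM against 11.3 CPM (5.66 to 20.3). Fn1, a matrix protein, Rnd3, a GTPase of migrating neurons, Pou3f1 and Cbln2 were between 1.95 and 2.67 on the log2 scale, and LOC102546421 and Tcf7l2 completed the higher genes. The adhesion molecule Chl1 was lower in members at 30.3 CPM (20.8 to 42.5) against 333 CPM (298 to 371), and Cck, which encodes cholecystokinin, at 1.83 CPM against 133 CPM. Under the stricter cell filter the log2 ratios of Cck and Nts were 0. LOC102553190 was at 70.6 CPM (55.7 to 88.2) against 632 CPM (583 to 684), so it was high over other neurons and low under Reln-high cells. The lower genes also held Grm2, LOC120095980 and Nts, the last with no UMI in members and with all Reln-high UMIs in 5 cells. Ahsp and Alas2, genes of red blood cells, were among them as well, and 2 of the 94 Reln-high cells held at least 5% globin UMIs. Without cells of at least 5% globin the log2 ratio of Ahsp was 0.21 in place of -3.99.

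Lhx9-negative kin shared Ebf1, Ebf2 or Calb2 with the members. As a whole they also held cells under the neuronal threshold, and the genes lowest in members were Col3a1, Col1a2, Col1a1, Col4a1, Lum, Sparc, S100a11 and Lgals1, most of them matrix genes of connective tissue. Of 3233 genes, 88 were at least 2-fold higher in members (2.72%) and 220 lower (6.8%). The higher count was 215 at a sum of 6, 165 without Reln, 880 under the stricter cell filter, 44 with each cell weighted alike and 136 with 1 CPM added, and the lower count was 426 under that filter. Against the 63 neuronal kin, a comparison added after the matrix genes had been seen, 16 of 3056 genes were higher (0.524%) and 7 lower (0.229%). No connective tissue gene was among those 7.

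Against neuronal kin the members were close to the kin in Tbr1 and differed in Lhx2, Eomes and Tp73. Tbr1 was at 636 CPM in members and 702 CPM (632 to 777) in neuronal kin. Lhx2 was at 829 CPM against 503 CPM (444 to 567), and Eomes at 481 CPM against 285 CPM (241 to 334). Tp73 was at 62.4 CPM against 5.74 CPM (1.18 to 16.8), but at 5.32 CPM in the members without Reln, and Lhx1 had no UMI in neuronal kin (upper limit 7.05 CPM). Lef1, a Wnt effector, was at 150 CPM (128 to 175) against 57.4 CPM (38.7 to 81.9). Foxp2, a forkhead factor of deep-layer neurons, was lower in members at 55.9 CPM (42.8 to 71.9) against 145 CPM (114 to 182). Of the 8 genes with the highest ratio over all kin, LOC102553190, Tp73, Plk4 and LOC102556108 have been described. Dusp4, Scg5, Cnr1 and Cabp1 had log2 ratios between 0.83 and 1.06 over neuronal kin.

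The 114 members labelled E16 were not uniform. Eomes was found in 88 cells, Tp73 was found in 15, and Tcf7l2 was found in 5. Shares of cells depend on depth, and the median depths of the groups compared below lay between 6902 and 9858 UMIs.

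The 5 cells with Tcf7l2 held between 6 and 20 UMIs of it. The same 5 cells held all 54 UMIs of Shox2, a homeodomain factor of the diencephalon, with 6 to 18 UMIs each. Otx2, a homeodomain factor of forebrain and midbrain, was found in 4 of them, and Pou3f4 in all 5. Neurod6, Eomes, Calb2, Reln and Nxph4 had no UMI in these cells. The diencephalon list, with 4 of 21 genes at 10 CPM in the comparison with other neurons, owed its highest gene to them. Of the 4, Tcf7l2 and Lhx1 passed that minimum through the members alone and so had to differ, and the list's median log2 ratio of 1.09 was 0 with no minimum. Without these cells Tcf7l2 had a log2 ratio of -0.17. One member labelled E18 held all 12 Tcf7l2 UMIs of its library's members, with 11 Lhx2 UMIs.

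Members with 1 to 4 Reln UMIs (51 cells) held nearly all Tp73 and Lhx1 RNA. Tp73 was at 123 CPM (95.2 to 157) in them and 5.32 CPM (1.10 to 15.6) in the 63 members with no Reln UMI, from 65 and 3 UMIs. Lhx1 had 20 UMIs in 10 of the 51 cells and none in the 63. Neurod6 ran the other way at 302 CPM (257 to 352) against 617 CPM (554 to 686). Nhlh2 and Nxph4 did not follow Reln. Nhlh2 was at 440 CPM (385 to 501) and 422 CPM (370 to 479), and Nxph4 at 306 and 287 CPM.

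Members with and without Calb2 differed in Mapt, Ina, Stmn4, Eomes, Gadd45g and Dll3, genes chosen after their values were seen. In the 50 cells with a Calb2 UMI, Mapt, which encodes the axonal protein tau, was at 332 CPM (283 to 387), against 50.2 CPM (33.9 to 71.7) in the 64 without. Ina, a neurofilament gene, was at 1240 CPM (1144 to 1343) against 747 CPM (679 to 820), and Stmn4, a microtubule regulator, at 304 against 58.6 CPM. Eomes, Gadd45g and Dll3 were higher in the cells without Calb2. Eomes was at 268 CPM (224 to 317) in cells with Calb2 and 657 CPM (593 to 725) in those without, Gadd45g at 152 against 454 CPM, and the Notch ligand Dll3 at 28.4 against 139 CPM. Plk4 was at 38.5 CPM (23.2 to 60.1) against 278 CPM (237 to 324). The Plk4 difference from other neurons therefore lay mostly in members without Calb2. These divisions use genes of the rule, which limited Reln to 4 UMIs and required Ebf1 or Ebf2 where Calb2 was absent.

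**Figure D3:**
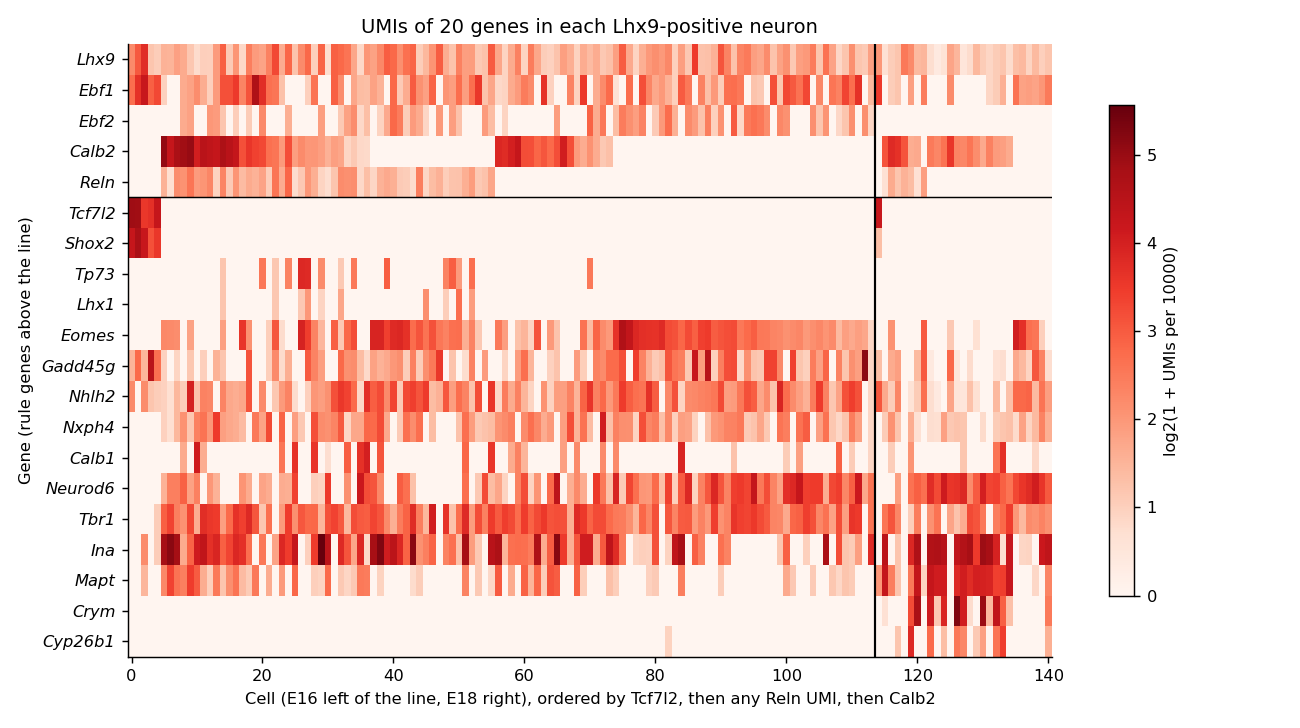
UMIs per 10000 of each member cell (log2 scale with 1 added) for 20 genes, with the 114 members labelled E16 at left, the 27 labelled E18 at right and the genes of the rule above the line. Tcf7l2 and Shox2 fill the same 5 columns labelled E16, and Crym is present only among the members labelled E18.

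**Figure D4:**
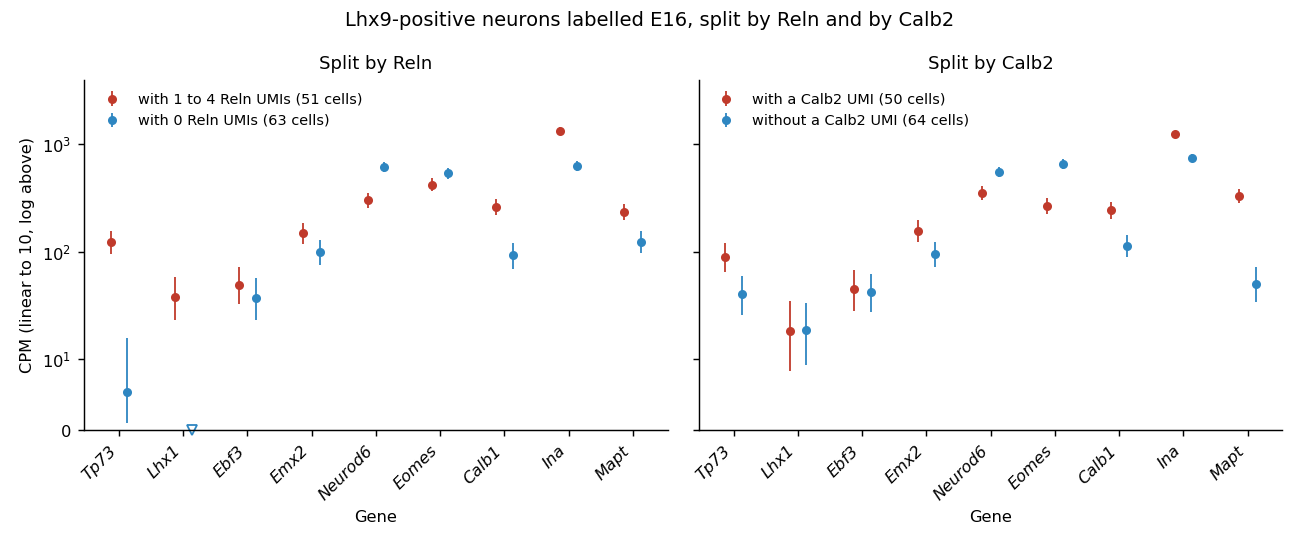
Levels (CPM with 95% Poisson intervals) of 9 genes in members labelled E16, divided by Reln (51 cells with 1 to 4 UMIs, 63 with none) and by Calb2 (50 cells with a UMI, 64 without). Tp73 stands at 123 against 5.32 CPM by Reln, and Eomes at 268 against 657 CPM by Calb2.

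Nearest neighbours in expression were found without the genes of the rule, among members, other neurons and Reln-high neurons of 1 library. For members labelled E16, 45.4% of 15 neighbours were members, which made up 28.0% of the set, 40.6% were other neurons and 14% were Reln-high neurons. Reln-high neurons found 67.4% of their neighbours among themselves. For the 27 members labelled E18, 16% of neighbours were members, which made up 1.72% of the set, and 81.2% were other neurons. In neither library did the members form a set apart, since 46 of 114 members labelled E16 and none of the 27 labelled E18 had at least 8 members among their 15 neighbours.

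The 27 members labelled E18 were set against 1490 other neurons of their library. Of 3366 genes, 85 were at least 2-fold higher in members (2.53%) and 47 lower (1.4%). These counts were 388 and 292 under the stricter cell filter, 184 and 119 after thinning to 5000 UMIs and 131 and 75 with at least 2 Lhx9 UMIs, and 72 were lower at a sum of 6. Of 12 deep-layer genes 2 were at least 2-fold higher (Crym and Nr4a3) and 2 lower (Foxp2 and Wnt7b), with a median log2 ratio of 0.11, against 2.38% and 1.46% of all 8373 genes at 10 CPM. The median depth was 14097 UMIs in members and 8851.5 UMIs in other neurons, and its part in these differences was not tested beyond thinning.

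Crym, which encodes a thyroid hormone-binding protein of deep-layer and subcortically projecting neurons, was at 943 CPM (854 to 1040) in members and 67.2 CPM (63.0 to 71.6) in other neurons. Cyp26b1, an enzyme that degrades retinoic acid, was at 240 CPM (196 to 291) against 15.7 CPM (13.8 to 17.9). Both rested on a part of the cells, with Crym in 15 and Cyp26b1 in 11 of 27 members. S100a10, a calcium-binding family protein of deep-layer neurons, was at 314 CPM (264 to 372) against 48.6 CPM in 8 members. Calb1 was at 88.5 CPM (62.6 to 121) against 4.83 CPM (3.76 to 6.10) in 6 members. Igf1, at 83.8 CPM, came from a single cell.

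The 11 members with at least 4 Crym UMIs held 100 of 103 Cyp26b1 UMIs, all 135 S100a10 UMIs and 36 of 38 Calb1 UMIs. Mapt was at 1356 CPM (1214 to 1512) in them and 688 CPM (574 to 817) in the other 16, and Ina at 2076 against 912 CPM. The 16 were not alike. A division by Mapt, made after the values were seen, set apart 5 of them with at least 10 Mapt UMIs each. These 5, with at most 2 Crym UMIs each, held 120 of the 129 Mapt UMIs of the 16, at 1594 CPM, and Ina at 2006 CPM. Eomes had no UMI in the 11 cells (upper limit 15.3 CPM) and stood at 325 CPM (249 to 418) in the 16. Nhlh2 was at 62.0 CPM (34.7 to 102) against 293 CPM (221 to 382). Ina was thus high in the Crym cells and in the 5 cells chosen by Mapt, and lower in the remaining 11, at 178 CPM. Those 11 held Eomes at 534 CPM (408 to 688). That Mapt differed between the 5 and the 11 was fixed by the division. The 8 members without Calb2 held 56 of the 61 Eomes UMIs. The cell that held all Igf1 UMIs also held 10 UMIs of Pmel and 5 of Tyrp1, pigment cell genes, and 20 of Postn.

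Nhlh2 was at 163 CPM (127 to 206) in members labelled E18 and 90.2 CPM (85.4 to 95.3) in other neurons, and Nxph4 at 114 CPM (84.4 to 151) against 62.3 CPM (58.3 to 66.5). Of the 3 named markers outside the rule, 2 were lower in members than in Reln-high cells, with a median log2 ratio of -0.79. Nhlh2 was at least 2-fold lower there and Calb1 at least 2-fold higher. Over neuronal kin all 3 were higher, with a median of 0.78, Calb1 by at least 2-fold. Nrp2 was at 83.8 CPM (58.7 to 116) in members and 8.69 CPM (7.24 to 10.3) in other neurons, and Chst2 at 72.2 CPM (49.1 to 102) against 17.2 CPM. Nrp2 and Chst2 were at least 2-fold higher than in other neurons in both libraries, though labelled E16 the log2 ratio of Chst2 was 0.56 at a sum of 6 and that of Nrp2 fell as given above. Of 11 measured subplate and preplate genes, 3 were at least 2-fold higher (Nr4a2 in 3 cells, St18 and Zfpm2), with a median of 0.78 against 0.02 for all genes. Against neuronal kin 3 of the 11 were higher and 8 lower, none by 2-fold, with a median of -0.29. St18, a zinc-finger factor, was at 123 CPM (92.5 to 161) against 37.9 CPM, and Zfpm2, a GATA cofactor, at 67.5 CPM (45.2 to 97.0) against 13.9 CPM. Against the 64 neuronal kin of this library St18 and Zfpm2 were not higher in members, with St18 at 182 CPM and Zfpm2 at 73.6 CPM in kin.

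Of 10 measured upper-layer genes 4 were at least 2-fold lower in members labelled E18, among them Cux2, Pou3f2 and Pou3f3, with a median of -0.61 (1.46% of all genes at 10 CPM were lower). Against neuronal kin of this library 2 of 9 were at least 2-fold lower and 1 higher, with a median of -0.032. Of all 8370 genes at 10 CPM in that comparison, 138 were lower and 133 higher. Meis2 was at 23.3 CPM (11.2 to 42.8) in members and 202 CPM (194 to 209) in other neurons, and Ntm, an adhesion molecule, at 4.66 CPM against 118 CPM. Sorl1, Sema6d, Ackr3 (a decoy chemokine receptor), Sfrp1 (a Wnt antagonist), Pcdh18 and LOC120101631 were also among the 10 lowest. LOC102548260, Rprml, Pcsk2, Sema3c, Hrk, Hmcn1, Kitlg, Mt3 and Lcorl completed the 15 highest. Of these, Mt3, a metallothionein of the brain, was at 156 CPM and Pcsk2, a prohormone convertase, at 100 CPM, while neuronal kin held 147 and 123 CPM.

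Of the 14 Cajal-Retzius genes, 6 had no UMI in members labelled E18 (Tp73, Lhx1, Lhx5, Ndnf, Car10 and Unc5b). Of 5 measured genes of the list, Spock1 was at least 2-fold higher and Foxp2 at least 2-fold lower than in other neurons. Against Reln-high cells of that library 10 of 13 measured genes of the list were at least 2-fold lower and 1 higher, beside 6.69% and 4.75% of all 8775 genes at 10 CPM. These groups were again divided by Reln. The 6 genes without a UMI in members passed that minimum through the Reln-high cells alone and so had to be lower. Tp73 and Lhx1 had no UMI in the 27 cells (upper limit 8.59 CPM), whereas Reln-high cells of the same library held 318 CPM (276 to 365) and 211 CPM (177 to 249). Emx2 was at 16.3 CPM (6.55 to 33.6) in members, 18.0 CPM in other neurons and 309 CPM (268 to 355) in Reln-high cells. Emx2 in members and other neurons differed by less than counting error.

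Members of the 2 libraries were also set against each other. Of 3412 genes, 234 were at least 2-fold higher in members labelled E18 than in those labelled E16 (6.86%) and 103 lower (3.02%). These counts were 727 and 606 under the stricter cell filter, and 359 genes were higher for members without Reln and 170 lower after thinning to 5000 UMIs. Of 9 measured Cajal-Retzius genes 6 were at least 2-fold lower and 2 higher (Clstn2 and Spock1), beside 3.96% and 5.82% of all 8585 genes at 10 CPM. Among the 6, Tp73 and Lhx1 had no UMI labelled E18. They passed that minimum through the members labelled E16 alone and so had to be lower. The cells differ in how they met the rule, through Calb2 more often in the library labelled E18, and the library cannot be told apart from the stage.

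Of 17 synaptic release genes 6 were at least 2-fold higher (Snap25, Syt1, Syn1, Syn2, Sv2a and Cplx1), none was lower, and the median was 0.82 against 0.04 for all genes. Of all 8585 genes at 10 CPM, 5.82% were higher and 3.96% lower. Snap25, a SNARE protein of synaptic vesicle fusion, was at 33.9 CPM (23.9 to 46.8) in the first library and 189 CPM (150 to 234) in the second. Mapt was at 178 CPM (154 to 205) and 1064 CPM (969 to 1167). Grin2b, an NMDA receptor subunit, was at 21.1 CPM (13.4 to 31.6) and 333 CPM (281 to 392). The deep-layer list had 6 of 12 genes at least 2-fold higher, beside 5.82% of all genes at 10 CPM. Of the 6, Crym, Lmo3 and Ldb2 passed that minimum through the members labelled E18 alone and so had to be higher. Crym had no UMI in members labelled E16 (upper limit 3.38 CPM), and Lmo3, a LIM-only protein, had none either, against 102 CPM (74.5 to 138) labelled E18.

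Of 10 measured progenitor genes 7 were at least 2-fold lower in members labelled E18 (Hmga2, Sox9, Ccnd1, Eomes, Neurog2, Btg2 and Gadd45g), with a median of -1.15, beside 3.96% of all genes at 10 CPM. Eomes stood at 481 CPM (440 to 523) in the first library and 142 CPM (109 to 182) in the second. Etv1, an ETS factor, was at 159 CPM (136 to 184) in members labelled E16 and had no UMI in the other library's members (upper limit 8.59 CPM). Crabp2, which carries retinoic acid, was at 350 CPM (316 to 387) and 60.6 CPM (39.6 to 88.7). Of 21 measured patterning factors 11 were at least 2-fold lower, among them Emx2, Nr2f2, Lhx2, Dmrta2 and 4 Zic genes, and 1 was higher (Wnt5a). The shares of all genes at 10 CPM were 3.96% lower and 5.82% higher. The 3 named markers outside the rule were lower too, Nhlh2 and Nxph4 by log2 ratios of -1.35 and -1.30 and Calb1 by -0.90. The remaining genes with the highest ratios were LOC120095249, Cdh13, Rprml, S100a10, LOC120094326, Camk2b, Dact1 and Sybu. Those with the lowest were LOC102553190, Ndufa4l2, Tfap2e, Tp73, Nrxn3, Plk4, Pou3f2 and Shmt2.

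**Figure D5:**
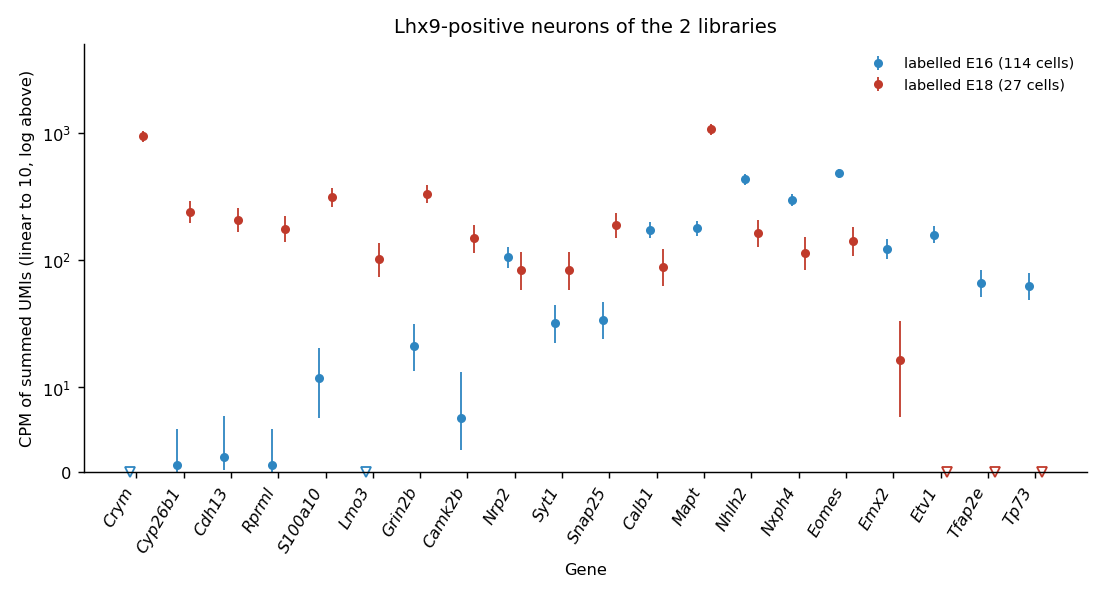
Levels (CPM with 95% Poisson intervals) of 20 genes in the 114 members labelled E16 and the 27 labelled E18. Mapt stands at 178 and 1064 CPM and Eomes at 481 and 142 CPM, with 1 library behind each label.

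Markers of endothelial cells and microglia were near 0 in members. The 10 endothelial and mural genes summed to 2.75 CPM in members labelled E16 and 0 in those labelled E18, and the 8 microglial genes to 3.67 and 0 CPM. The 12 meningeal and choroid genes summed to 28.4 CPM in members labelled E16 and 81.5 CPM in those labelled E18, against 24 and 55.7 CPM in other neurons, and reached 1785 CPM in 1 member labelled E18. The 21 diencephalon genes summed to 272 CPM in members labelled E16 and 97.1 CPM in other neurons. The 10 erythroid genes summed to 680 CPM in members labelled E16, 949 CPM in other neurons and 53962 CPM in Reln-high cells. The median cell stood at 650 CPM in members and 679 CPM in Reln-high cells, of which 2 of 94 held at least 5% globin UMIs. Median mitochondrial shares were 5.95% in members labelled E16 and 3.97% in all cells kept there, and 97 of 114 members (85.1%) were above 5%, against 25.0% of all cells kept. Other neurons of that library stood at 6%. The part of cell quality in the results was not tested beyond the stricter filter described in the closing section.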

How the data were processed

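Single-cell RNA was measured in 3 libraries of rat cerebral cortex, 1 for each label. The deposited matrices hold UMI counts per gene and cell barcode for 29772 genes, with no normalization. Cell Ranger 6.0.1 wrote them, per the file headers, and the submitters' processing notes also name the build mRatBN7.2. Which aligner settings or cell calling were used is not given in the sources used here.

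Cells were kept with 1000 or more detected genes and no more than 10% of UMIs from the 13 mitochondrial genes, and the rule was applied to raw counts. Counts were summed over the cells of a group and given as CPM, with exact Poisson intervals, and shares have exact Clopper-Pearson intervals (95%). Ratios are log2 of CPM with 10 CPM added. List medians and 2-fold counts within a list use genes of at least 10 CPM in either group, and 2-fold counts over all genes those of at least 50 CPM, without the genes of the rule. With 1 library per label no test was run, and the sums were checked on simulated data. Neighbours were taken as 15 cells in 20 principal components of 1000 variable genes. The computations used scanpy 1.11.5, scipy 1.17.1, numpy 2.4.6, pandas 2.3.3 and matplotlib 3.10.9 under Python 3.11.15.

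Named genes are the 15 highest and 10 lowest against other neurons, and 8 each way against Reln-high cells and kin, at 50 CPM, besides the members of the lists. Some genes of these sets are counted in the sets but not reported here by name. The cells, the 24 gene lists and the divisions of the members were chosen with earlier results of these data known. Doublets were left in. Removing the highest Scrublet scores at 0.8% per 1000 cells took out no member labelled E16 and 1 labelled E18, and Scrublet's own threshold marked 0.0385% of cells labelled E16 and was not used. UMIs from free RNA were not removed.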

Additional observations from a re-analysis of the deposited data

Results flagged for a closer look

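For 7 genes the members lay at least 2-fold to one side of a comparison population in the library labelled E16 and at least 2-fold to the other side in that labelled E18. Only genes of the lists, genes with the highest or lowest ratios and some further chosen genes were searched. The 7 are therefore not a count over all genes. Values are log2 ratios with 10 CPM added, from 114 and 27 members. Whether the ratios of the 2 libraries differ was not tested, and no gene rests on more than 1 library per label.

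Over Reln-high cells, 3 genes were lower in members labelled E16 and higher in those labelled E18. Camk2b, a synaptic kinase subunit, stood at -1.20 and 1.43. S100a10 stood at -1.65 and 2.15, and Sema3c, a secreted semaphorin, at -1.45 and 1.89. A further 3 genes ran the other way. Etv1 stood at 1.53 and -1.43, with no UMI in members labelled E18. Ndufa4l2 stood at 1.12 and -1.55, and the proneural factor Neurog2 at 1.02 and -1.32.

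Over other neurons, Selenom stood at 1.76 in the library labelled E16 and -1.34 in that labelled E18. Its level in members was close in both, at 77.9 and 79.2 CPM, while that of other neurons was 16 and 216 CPM. Sema3c stood at -1.19 and 2.18 over other neurons, with 36 UMIs from 5 members labelled E18.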

How the results depend on the processing

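The shares of members, 3 list medians, the 2-fold counts and 56 ratios of named genes labelled E16 were recomputed under 16 alternatives, of which 4 were added after seeing the data (neuronal kin and Reln-high cells, members without Tcf7l2, members with Stmn2 and Tubb3, and no cell of 5% globin). No paired analysis was possible because each label has 1 library. Of these 56 ratios 39 kept their sign throughout and 18 stayed at least 2-fold throughout. In the 27 members labelled E18, 1 UMI is 2.33 CPM. Ratios of single genes labelled E18, neighbour shares and divisions of the members were not recomputed. Causes of the changes below were not tested.

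The share of members labelled E16 was 1.43% with at least 2 Lhx9 UMIs, 1.16% with at least 6 UMIs of Ebf1, Ebf2 and Calb2, 1.21% with no Reln UMI and 0.437% under the stricter cell filter (2000 genes, 5% mitochondrial UMIs), which left 16 members. The share labelled E18 was 0.281% with at least 2 Lhx9 UMIs and 0.187% under that filter, which left 5 members.

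Against other neurons labelled E16, the subplate median was -0.10 at a sum of 6, 0.66 under the stricter filter and 0.034 with no list minimum. The diencephalon median was 1.73 with at least 2 Lhx9 UMIs, 2.30 with 1 CPM added, 1.76 for genes at 50 CPM and 0 with no minimum, and that labelled E18 was -0.45 under the stricter filter. The Cajal-Retzius median over Reln-high cells was -0.69 with no minimum.

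Genes 2-fold higher than in other neurons numbered 32 with at least 2 Lhx9 UMIs, 11 without Reln, 256 under the stricter filter and 30 after thinning to 5000 UMIs. Genes lower numbered 13 with at least 2 Lhx9 UMIs, 18 at a sum of 6, 111 under the stricter filter, 15 against neurons with Neurod2 or Neurod6 and 15 with 1 CPM added. Over Reln-high cells 892 genes were higher under the stricter filter, and 123, 137 and 120 were lower without Reln, under the stricter filter and after thinning. Over kin, 215 were higher at a sum of 6, 165 without Reln, 880 under the stricter filter, 44 with each cell weighted alike, 136 with 1 CPM added and 16 against neuronal kin, and 426 and 7 were lower under the stricter filter and against neuronal kin. Between the members of the 2 libraries, 359 and 727 genes were higher labelled E18 without Reln and under the stricter filter, and 606 and 170 were lower under the stricter filter and after thinning.

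Single genes changed sign or came to 0 as follows. Without the Tcf7l2 cells, Tcf7l2 was at -0.17 over other neurons and -0.14 over Reln-high cells. Without Reln, LOC102556108 was at -0.071 and Tp73 at -0.69 over other neurons. Under the stricter filter Pou3f2 was at 0.20 over other neurons, LOC120095980 at 0.71 and Cck and Nts at 0 over Reln-high cells, and LOC102553190 at -0.064 over kin. Without cells of 5% globin, Ahsp was at 0.21 over Reln-high cells. Against neuronal kin, Col3a1 was at 0.54, Col1a1 at 0.13, Col4a1 at 0.10, Lum at 0.13, Sparc at 0.10, S100a11 at 0.16 and Lgals1 at 0.42.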

Other observations

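Genes of the list of LIM homeodomain factors and partners differed between the members of the 2 libraries. Of 10 measured genes of the LIM homeodomain list, 6 were at least 2-fold higher in members labelled E18 (Lmo1, Lmo3, Lmo4, Ldb2, Ssbp2 and Ssbp3) and 4 were lower (Lhx1, Lhx2, Lmo2 and Ldb1), beside 5.82% and 3.96% of all genes at 10 CPM. Lmo3 and Ldb2 had no UMI labelled E16, and Lhx1 had none labelled E18. These genes passed the minimum through a single group and so had to differ. Lmo4, a LIM-only protein that competes for the LDB cofactors, was at 191 CPM (166 to 218) in the first library's members (labelled E16) and 473 CPM (410 to 542) in the second's. Ssbp2, which stabilises LDB proteins, was at 22.9 CPM (14.8 to 33.8) and 170 CPM (133 to 214). Ldb1, the cofactor that bridges LIM-homeodomain proteins, was at 111 CPM (92.1 to 133) and 41.9 CPM (24.8 to 66.3). Ldb2 had no UMI labelled E16 (upper limit 3.38 CPM) and 21 CPM from 3 cells labelled E18. Against neuronal kin labelled E18, 8 genes of the list were measured. Lmo3, Ldb1 and Ldb2 were at least 2-fold lower in members there, and Lhx2 and Lmo4 at least 2-fold higher. Of all 8370 genes at 10 CPM in that comparison, 138 were lower and 133 higher.

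Channel genes were compared between members and Reln-high cells. Of 15 measured genes of the channel list, 4 were at least 2-fold lower in the library labelled E16, with Scn3a, Cacna1g and Kcnk2 among them, none was higher, and the median log2 ratio was -0.47, beside 1.89% lower and 1.19% higher of all genes at 10 CPM. With the label E18, 4 of 17 were at least 2-fold higher (Grin2b, Scn2a, Scn9a and Kcnq3) and 5 lower, with a median of 0.14, beside 4.75% and 6.69% of all genes. Kcnk2, a background potassium channel, was at 20.2 CPM (12.6 to 30.5) in members and 61.9 CPM (47.2 to 79.6) in Reln-high cells. Cxcr4, the receptor that holds Cajal-Retzius neurons beneath the meninges, was at 22.9 CPM (14.8 to 33.8) in members, 125 CPM (104 to 149) in Reln-high cells and 3.07 CPM (0.997 to 7.17) in other neurons. In the library labelled E18, Cxcr4 was at 23.3 CPM from 3 members, 203 CPM in Reln-high cells and 0.966 CPM in other neurons.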
